A study of Mus musculus with 4 samples.

Results

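The DNA replication genes described here are 44 mouse genes that encode the proteins which license replication origins, unwind the helix, prime and copy both strands, join the fragments, supply the nucleotides and reassemble chromatin behind the fork. Members were found as the probes whose transcript accession led through the RefSeq annotation to one of the 44 symbols. They were 48 of the 28020 probes that received 1 symbol, among 55681 probes in all, and 44 of the 21150 genes named on the array. Finding the probes used no measured value, but the list of members was chosen with earlier results of these data known. Each member was read from its brightest probe, and 40 members had 1 probe and 4 had 2. All 44 were well above background on all 4 arrays, so none was lost to a filter on low values.

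Expression was measured on 4 one-colour Agilent arrays, with 1 array per group. LSK cells, the lineage-negative marrow fraction with c-Kit and Sca-1 on its surface that holds stem and multipotent progenitor cells, came from mice given JQ1 or its vehicle DMSO, and so did MEP cells, the progenitors of megakaryocytes and red cells. JQ1 is a small molecule that keeps BET bromodomain proteins off acetylated chromatin. Every donor cell was JAK2V617F/Ezh2Δ/Δ on the strain label C57BL/6: JAK2V617F is the activating kinase mutation of myeloproliferative neoplasms, and Ezh2, the methyltransferase of Polycomb repressive complex 2, was removed from a floxed allele by Cre-ERT2. The donor marrow had been placed in CD45.1+ wild-type recipients after lethal irradiation, dosing lasted 2 weeks, and the cells were sorted straight afterwards. All 4 groups carry both lesions, so no comparison here concerns JAK2V617F or the loss of Ezh2. The ages of the mice, how many were sorted for an array, and whether recipient-derived cells were gated out are not given in the sources used here.

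In a dividing cell, the origin recognition complex marks origins, Cdc6 and Cdt1 load the ring of Mcm2 to Mcm7 onto them in G1, and Cdc45 with the GINS complex turns that ring into the active helicase in S phase. Polymerase alpha with primase starts each strand, polymerases epsilon and delta extend it on the Pcna clamp that replication factor C loads, and Fen1 and Lig1 finish the lagging strand. Most of these genes are transcribed late in G1 under E2F factors, so their transcript levels are a common sign of how many cells in a population are cycling.

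With 1 array per group there is no replicate, no test, no p-value and no error over mice. A level below is log2 of the processed signal over the array's 75th percentile. A difference is log2 after subtraction of the median difference of all measured genes, because that median itself lay off 0, by 0.06 for JQ1 against DMSO in LSK, 0.34 for JQ1 against DMSO in MEP, and between the cell types by -0.22 under DMSO and 0.07 under JQ1. "Above" and "below" therefore mean relative to the median measured gene, and 1.5-fold, or 0.585 log2, was the size past which a difference was counted. Where a gene had several probes, their differences had an SD of 0.26 log2 for JQ1 in LSK and 0.39 for JQ1 in MEP. Between the cell types this SD was 0.37 under DMSO and 0.27 with JQ1. It covers neither mice nor sorts. A bulk level also cannot tell fewer cells of a kind from less RNA per cell.

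Few of the 44 replication genes were past 1.5-fold in any comparison. With JQ1 in LSK none was, where 2.34% of all measured genes were higher and 7.54% lower. With JQ1 in MEP 2 were lower, where 13.7% of all genes were lower and 4.11% higher. Bright genes passed that size less often. In the top quartile of signal, which held 30 of the 44, 4.82% were lower and 3.54% higher with JQ1 in MEP. In LSK 2.14% of that quartile were lower and 0.649% higher. Between the cell types, 3 were higher in MEP under DMSO, where 14.0% of all genes were higher and 11.9% lower, and 2 with JQ1, where 8.53% were higher and 10.8% lower. These counts rest on the centring. Without it, 16 members were higher with JQ1 in MEP on the 75th percentile scale and 39 with scaling to the median probe. There the median of all measured genes was itself 0.34 and 0.75. With spike-in scaling and no centring, 38 were higher in MEP under DMSO, where the median of all measured genes was 0.88. At 0.75 and 0.88 the median gene was past 1.5-fold too, so such counts are not particular to the members. The share of all genes past that size was not counted without centring. The members past 1.5-fold were the origin recognition subunits Orc1 and Orc2, the helicase activator Cdc45 and the single-strand binding subunit Rpa3. Beneath that size, the 6 subunits of the MCM ring kept close together: all 6 lay above the median gene with JQ1 in MEP, by 0.40 to 0.51 log2, and all 6 lay below it in MEP against LSK under DMSO. Both of these comparisons use the DMSO MEP array, and both directions turn when the arrays are scaled to their spike-in probes without centring.

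The promoters of 5 members are printed because all 5 hold an E2F-type motif, while Orc1 had another pattern over the arrays than the 4 MCM genes. RefSeq promoter windows, from 250 bases before the annotated start to 50 after it on the GRCm38.p6 assembly, were available for 37 of the 44 members. The E2F-type motif was searched as TTTCCCGC, TTTGGCGC, TTTCGCGC and TTTGCCGC on both strands, and matches on opposite strands may share bases. The windows below read 5′ to 3′ on the gene's own strand, and capitals mark the matched bases. Mcm3 is at chr1:20820263-20820562 on the minus strand, Mcm5 at chr8:75109259-75109558 on the plus strand, Mcm6 at chr1:128359656-128359955 on the minus strand, Mcm7 at chr5:138171834-138172133 on the minus strand and Orc1 at chr4:108579204-108579503 on the plus strand.
Mcm3: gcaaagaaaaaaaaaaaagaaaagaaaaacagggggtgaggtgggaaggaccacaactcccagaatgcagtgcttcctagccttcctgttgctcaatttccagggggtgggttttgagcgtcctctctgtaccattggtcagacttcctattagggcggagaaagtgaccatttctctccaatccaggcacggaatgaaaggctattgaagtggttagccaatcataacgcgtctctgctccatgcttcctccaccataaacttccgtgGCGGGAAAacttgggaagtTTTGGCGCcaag
Mcm5: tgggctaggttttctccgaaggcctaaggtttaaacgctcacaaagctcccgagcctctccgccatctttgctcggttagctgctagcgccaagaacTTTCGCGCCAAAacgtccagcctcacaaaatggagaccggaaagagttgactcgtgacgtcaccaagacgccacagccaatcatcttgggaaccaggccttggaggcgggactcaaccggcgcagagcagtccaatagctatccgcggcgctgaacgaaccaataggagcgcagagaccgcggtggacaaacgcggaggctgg
Mcm6: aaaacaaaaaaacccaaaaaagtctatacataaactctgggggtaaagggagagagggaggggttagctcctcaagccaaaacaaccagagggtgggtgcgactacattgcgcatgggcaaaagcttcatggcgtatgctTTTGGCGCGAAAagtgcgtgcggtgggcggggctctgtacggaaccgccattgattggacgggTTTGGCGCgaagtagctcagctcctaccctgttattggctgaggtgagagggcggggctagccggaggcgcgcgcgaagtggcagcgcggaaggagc
Mcm7: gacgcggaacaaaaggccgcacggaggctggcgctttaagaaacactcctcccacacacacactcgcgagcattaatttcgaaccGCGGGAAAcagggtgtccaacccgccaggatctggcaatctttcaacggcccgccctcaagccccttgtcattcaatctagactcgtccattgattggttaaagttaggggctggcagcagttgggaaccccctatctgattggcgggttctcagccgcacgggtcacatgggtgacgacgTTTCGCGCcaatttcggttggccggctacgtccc
Orc1: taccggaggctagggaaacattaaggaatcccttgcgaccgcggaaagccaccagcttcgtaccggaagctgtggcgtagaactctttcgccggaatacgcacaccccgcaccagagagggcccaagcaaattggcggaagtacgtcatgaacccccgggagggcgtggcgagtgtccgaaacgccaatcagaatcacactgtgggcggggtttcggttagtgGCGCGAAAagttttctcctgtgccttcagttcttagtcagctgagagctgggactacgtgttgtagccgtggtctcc

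In these windows the first matched base lay 19 and 38 bases after the start of Mcm3, and 165 bases before and 16 after that of Mcm7. In Mcm5 a TTTCGCGC and a TTTGGCGC on the opposite strand shared bases, as did a pair in Mcm6, which held a further TTTGGCGC starting 47 bases before its start. Orc1 had 1 match, 27 bases before the start. Over all members with a window, 14 of 37 genes (37.8%) had at least 1 match: Mcm3, Mcm5, Mcm6, Mcm7, Orc1, Cdc6, Cdt1, Gins3, Pola1, Pold1, Pold3, Pole2, Rfc3 and Lig1. Among all genes in the table, 704 of 27025 (2.6%) had one. The CCAAT box, searched as CCAAT on both strands, was in 23 of the 37 members (62.2%) and in 41.1% of all genes. A match is a description of letters, not a bound site, and its absence from a window of this length says nothing of the factor. The window of Mcm2 held no E2F-type match. Mcm7 had a second window, at chr5:138171217-138171516, also without a match, and its window with matches was the one printed. No window was listed for Mcm4, Gins1, Gins2, Gins4, Prim2, Pole and Rfc2.

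**Figure D1:**
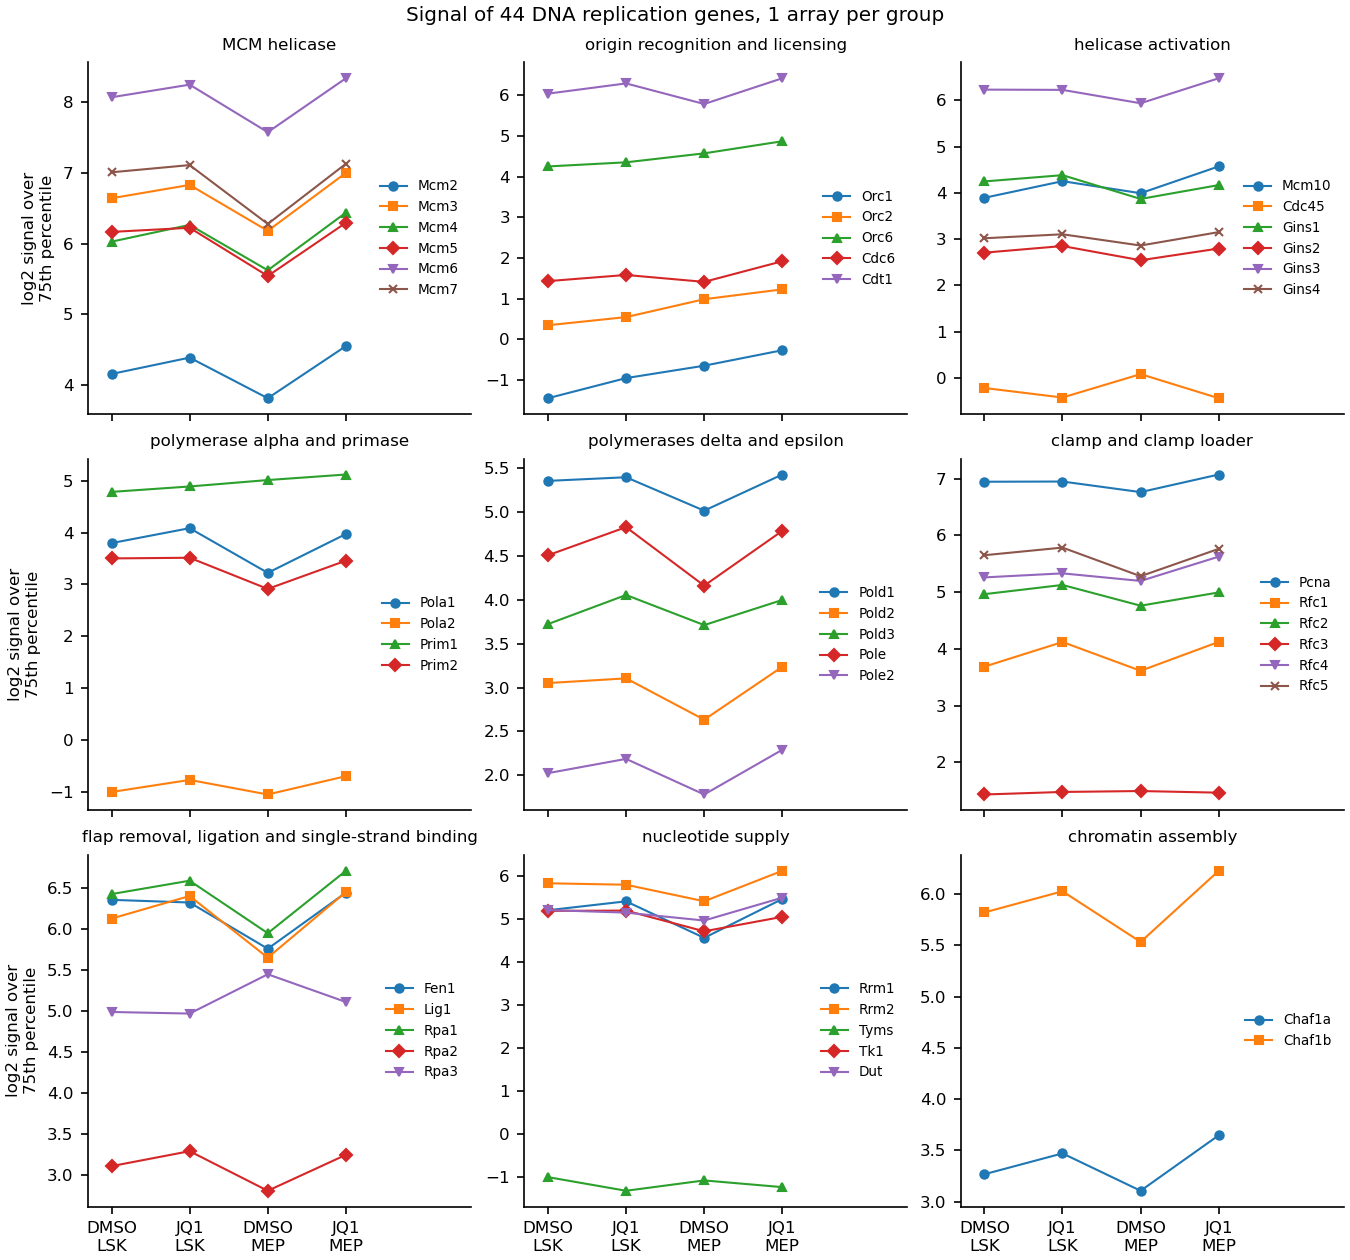
Level of each member (log2 of processed signal over the array's 75th percentile, vertical axis) on the 4 arrays (horizontal axis, 1 array per group), drawn by role, with a line for each gene. The DMSO MEP point is the lowest of the 4 for 35 of the 44 genes, and the lines of Orc1, Orc2 and Orc6 climb from LSK to MEP where those of the MCM genes dip at DMSO MEP. On this scale DMSO MEP is the lowest array for 66.8% of all genes above the median signal.

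The ring subunits Mcm2 to Mcm7 were read at these levels. Mcm6, the brightest probe of the group, read 8.07 in DMSO LSK, 8.24 in JQ1 LSK, 7.57 in DMSO MEP and 8.34 in JQ1 MEP. DMSO MEP was the lowest and JQ1 MEP the highest array, and this held for all 6 subunits. With JQ1 in MEP the median difference of the 6 was 0.45 log2, from 0.40 for Mcm2 to 0.51 for Mcm7, which is 1.43-fold for Mcm7. None was past 1.5-fold, and each was only slightly larger than the SD of 0.39 between probes of a gene. In LSK the JQ1 difference had a median of 0.12 and ran from -0.00 for Mcm5 to 0.17. The MEP difference with JQ1 less the LSK one was above 0 for all 6, from 0.22 for Mcm2 to 0.46 for Mcm7.

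Between the cell types, the 6 MCM genes lay below the median gene in MEP under DMSO, from -0.51 for Mcm7 to -0.12 for Mcm2, with a median of -0.26. Under JQ1 the same difference had a median of 0.06 and ran from -0.05 to 0.10. The MCM median with JQ1 in MEP was 0.25 under quantile normalization. With spike-in scaling and no centring it was -0.11, and all 6 subunits were then lower, by -0.16 to -0.05. The MEP against LSK median under DMSO was -0.09 under quantile normalization, -0.16 with a centre that follows signal, and -0.11 without the background filter, where 1 of the 6 was above 0. With spike-in scaling and no centring that median was 0.62, with all 6 above 0.

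Origin recognition and licensing genes had another order. Orc1, the subunit whose ATPase works in loading the ring, read -1.44 in DMSO LSK, -0.95 in JQ1 LSK, -0.65 in DMSO MEP and -0.27 in JQ1 MEP. Both MEP arrays were above both LSK arrays. Its difference for MEP against LSK was 1.02 log2 under DMSO (2.02-fold) and 0.61 under JQ1 (1.53-fold). Orc2, a core subunit, read 0.35 in DMSO LSK, 0.55 in JQ1 LSK, 0.99 in DMSO MEP and 1.23 in JQ1 MEP. Its MEP arrays too were above both LSK arrays on this scale. The share of all genes with that order was not counted. Orc2 differed by 0.86 under DMSO (1.81-fold) and 0.61 under JQ1 (1.53-fold). With normexp background correction, which acts on dim probes, the Orc1 difference was 0.69 under DMSO and 0.35 under JQ1, and that of Orc2 was 0.75 and 0.53, so neither was past 1.5-fold under JQ1.

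Those 2 genes, with Rpa3, were the 3 members (6.82% of 44) higher in MEP under DMSO past 1.5-fold, where 14.0% of 12404 measured genes were higher and 11.9% lower. No member was lower past that size. Under JQ1 Orc1 and Orc2 were the 2 members that were higher (4.55%), where 8.53% of 12259 genes were higher and 10.8% lower, and again no member was lower. Of Orc1, Orc2 and Rpa3, only Rpa3 lay in the top quartile of signal, which held 30 of the members. In that quartile 6.06% of all genes were higher under DMSO and 4.6% under JQ1. Orc1 lay in the lowest quartile, where 21.1% were higher under DMSO and 14.1% under JQ1. Orc2 lay in the quartile above the lowest, where these shares were 16.9% and 8.91%. Orc6, the small subunit, differed by 0.54 under DMSO and 0.45 under JQ1 and was chosen for mention after its values were seen. The remaining subunits, which are not members, were Orc3, Orc4 and Orc5. Of the 6 origin recognition genes together, 5 lay above the median gene in MEP under DMSO, with Orc3 at -0.03 the exception. Under JQ1 5 lay above it, with Orc4 at -0.29 the exception, and Orc5 differed by 0.61 and 0.79 in the 2 settings.

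Of the loaders, Cdt1, which brings the MCM ring to the origin, read 6.04 in DMSO LSK, 6.29 in JQ1 LSK, 5.79 in DMSO MEP and 6.42 in JQ1 MEP. As for the ring itself, DMSO MEP was its lowest array. Its JQ1 difference was 0.19 in LSK and 0.29 in MEP. Cdc6, the ATPase that works with Cdt1, had JQ1 differences of 0.09 and 0.17. A second probe of Cdc6 gave 0.07 and 0.39, and it gave -0.12 where the first gave 0.20 for MEP against LSK under DMSO.

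Among the genes that activate the helicase, Cdc45 stood out. It read -0.22 in DMSO LSK, -0.42 in JQ1 LSK, 0.08 in DMSO MEP and -0.44 in JQ1 MEP. DMSO MEP was its highest array, the reverse of the MCM ring with which its protein forms the helicase. Its JQ1 difference was -0.86 log2 in MEP (1.81-fold lower) and -0.27 in LSK. Without centring the MEP value was -0.52 on the 75th percentile scale and -0.11 with scaling to the median probe, neither past 1.5-fold. Gins3, the brightest of the GINS subunits, read 6.23 in DMSO LSK, 6.23 in JQ1 LSK, 5.94 in DMSO MEP and 6.48 in JQ1 MEP. The difference with JQ1 in MEP was 0.20 for Gins3 and between -0.08 and -0.04 for Gins1, Gins2 and Gins4. Mcm10, which helps the helicase start, differed by 0.30 with JQ1 in LSK and 0.24 in MEP.

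With JQ1 in MEP, Cdc45 and Rpa3 were the 2 members (4.55%) that were lower past 1.5-fold, where 13.7% of 12545 measured genes were lower. No member was higher past 1.5-fold, where 4.11% of all genes were. In the top quartile of signal, which held 30 of the members, Rpa3 among them, 4.82% of genes were lower and 3.54% higher. Cdc45 lay in the quartile above the lowest, where 15.3% were lower. The 44 had a median of 0.17 (quartiles -0.04 and 0.36), with 30 above and 14 below the median gene. Of the 6006 genes above the median signal, where most members lie, 3782 were also above the median gene and 2224 below. The 38 members outside the ring had a median of 0.12, with 24 above. In LSK no member was past 1.5-fold in either direction, where 2.34% of 12325 genes were higher and 7.54% lower. In the top quartile of signal these shares were 0.649% and 2.14%. The members ran from -0.38 to 0.43 in LSK around a median of 0.08, again with 30 above and 14 below. Of the 6006 genes above the median signal, 3316 lay above the median gene in LSK and 2690 below. The members were also less spread than all genes: their SD was 0.15 in LSK and 0.31 in MEP, where all measured genes had 0.42 and 0.53 and genes above the median signal 0.28 and 0.40. The distance between the quartiles was 0.17 in LSK and 0.40 in MEP for the members. For genes above the median signal it was 0.25 and 0.42, nearly the same in MEP.

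**Figure D2:**
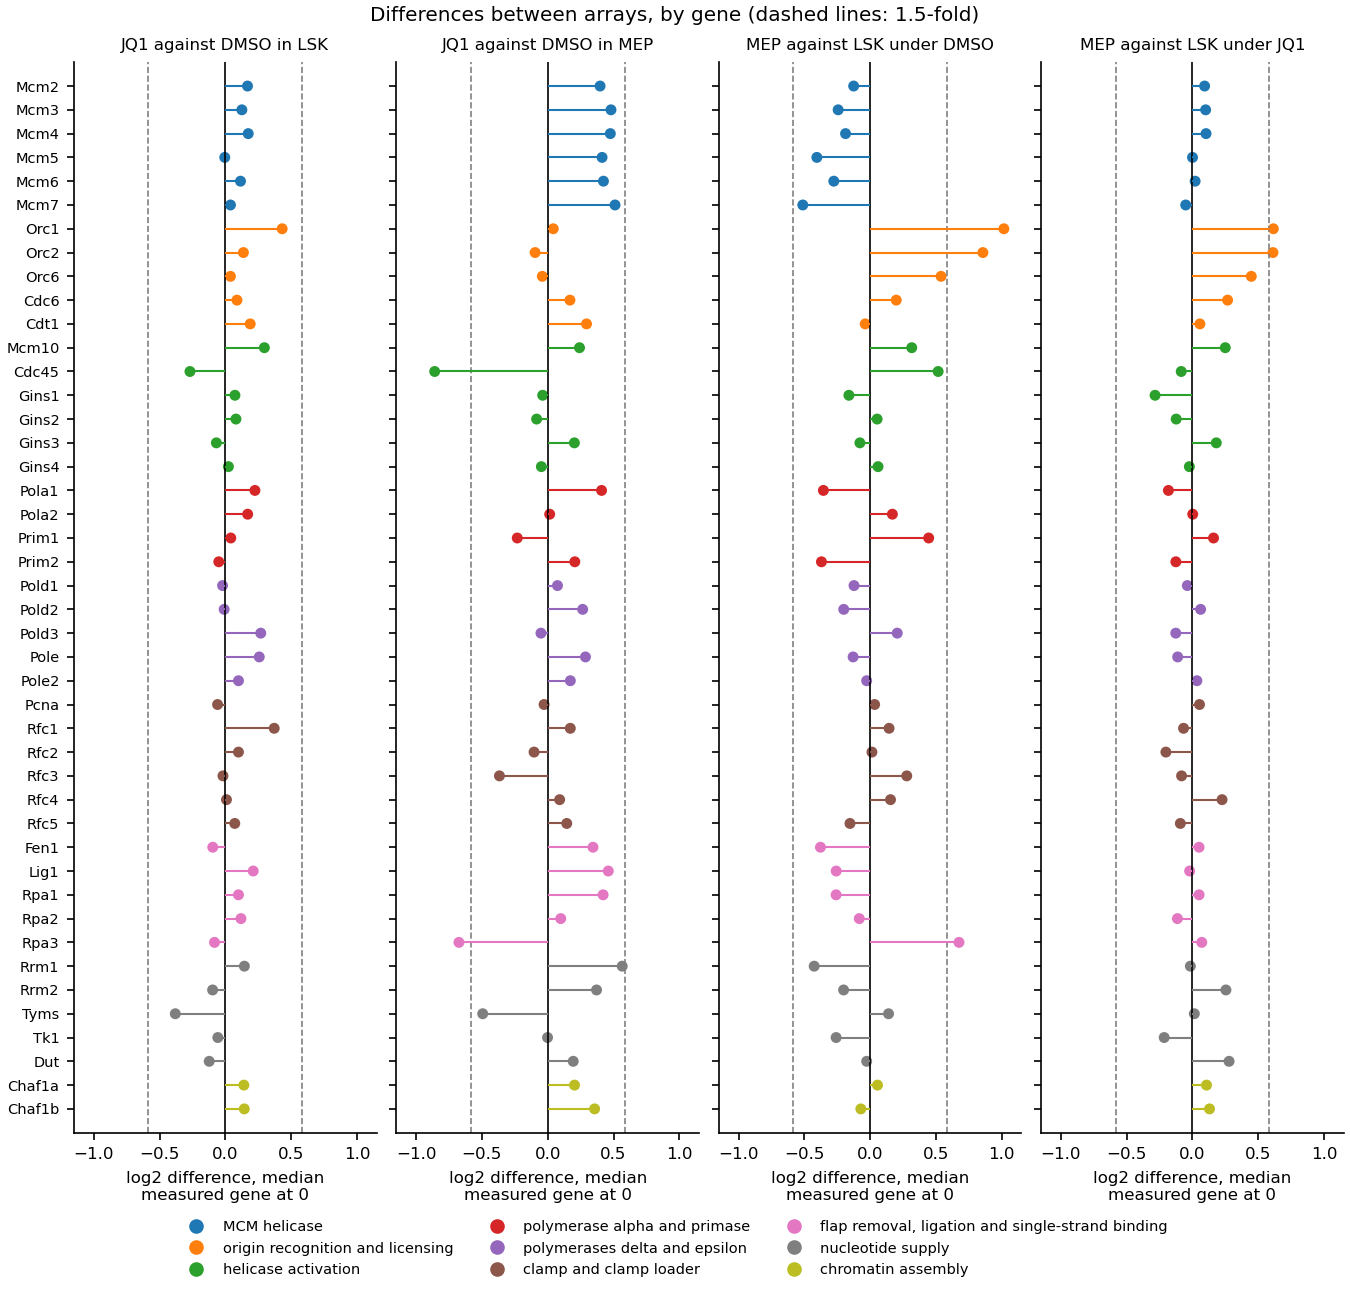
Differences of the 44 members, grouped by role, in the 4 comparisons (horizontal axis, log2 relative to the median measured gene). Dashed lines stand at 1.5-fold. With JQ1 in MEP the MCM genes lie together between 0.40 and 0.51 while Cdc45 and Rpa3 are the points beyond the lower line.

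Genes of the polymerases were mostly within the spread between probes. Prim1, the catalytic primase subunit, read 4.78 in DMSO LSK, 4.89 in JQ1 LSK, 5.01 in DMSO MEP and 5.12 in JQ1 MEP. The MEP arrays were the higher pair, an order whose share among all genes was not counted. Its difference between the cell types was 0.45 under DMSO and 0.16 with JQ1. The other primase subunit, Prim2, was on the opposite side in both, at -0.37 and -0.13. Pola1, the catalytic subunit of polymerase alpha, had JQ1 differences of 0.22 in LSK and 0.41 in MEP, and Pola2 of 0.17 and 0.01. Pold1, the catalytic subunit of polymerase delta, read 5.36 in DMSO LSK, 5.40 in JQ1 LSK, 5.02 in DMSO MEP and 5.43 in JQ1 MEP. Its levels on the arrays other than DMSO MEP were nearly equal. The 5 genes of polymerases delta and epsilon ran from -0.02 to 0.27 with JQ1 in LSK and from -0.05 to 0.29 in MEP.

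The sliding clamp gene Pcna was the flattest of the bright members. It read 6.95 in DMSO LSK, 6.95 in JQ1 LSK, 6.76 in DMSO MEP and 7.07 in JQ1 MEP. Its 4 differences lay between -0.06 and 0.05. The clamp loader subunits lay on both sides of the median gene: with JQ1 in MEP Rfc1, the large subunit, differed by 0.17 and Rfc3 by -0.37. A second probe of Rfc4 lay at -0.26 there, where the first lay at 0.09.

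Among the lagging-strand and single-strand binding genes, subunits of the same trimer lay on opposite sides of the median gene. Rpa1, the large subunit of the single-strand binding trimer, read 6.42 in DMSO LSK, 6.58 in JQ1 LSK, 5.95 in DMSO MEP and 6.70 in JQ1 MEP. Rpa3, its smallest subunit, read 4.99 in DMSO LSK, 4.97 in JQ1 LSK, 5.45 in DMSO MEP and 5.11 in JQ1 MEP. DMSO MEP was thus the lowest array for Rpa1 and the highest for Rpa3. With JQ1 in MEP they differed by 0.42 and -0.68, and Rpa2 by 0.10. For MEP against LSK under DMSO the values were -0.26 for Rpa1 and 0.68 for Rpa3 (1.60-fold), and that of Rpa3 was 0.46 without centring. Fen1, the flap nuclease, and Lig1, the ligase, were on the side of Rpa1, at 0.34 and 0.46 with JQ1 in MEP. Each of these genes had a single probe, so a difference of 1 probe from its gene could not be checked. Without centring, the JQ1 difference of Rpa3 in MEP was -0.34 on the 75th percentile scale and 0.077 with scaling to the median probe.

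Of the genes for nucleotide supply, Rrm2, the regulated subunit of ribonucleotide reductase, read 5.84 in DMSO LSK, 5.81 in JQ1 LSK, 5.42 in DMSO MEP and 6.13 in JQ1 MEP. JQ1 MEP was its highest array. With JQ1 it differed by -0.10 in LSK and 0.37 in MEP, and the large subunit Rrm1 by 0.14 and 0.57. The Rrm1 value in MEP was the highest of any member there. Thymidylate synthase, Tyms, was below the median gene in both cell types, by -0.38 in LSK and -0.49 in MEP. Dut, which clears dUTP, and Tk1, the thymidine salvage kinase, lay at 0.19 and -0.00 with JQ1 in MEP. The chromatin assembly subunit Chaf1b read 5.82 in DMSO LSK, 6.03 in JQ1 LSK, 5.53 in DMSO MEP and 6.23 in JQ1 MEP, with JQ1 differences of 0.14 and 0.36. A second probe of Chaf1b gave 0.15 and 0.33, close to the first.

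The lowest array was counted for each member, since DMSO MEP recurred. On the 75th percentile scale it was DMSO MEP for 35 of the 44 members (79.5%), and for 54.8% of the 12013 genes measured on all 4 arrays. Among genes above the median signal it was DMSO MEP for 66.8% on this scale. Relative to each array's own median gene it was DMSO MEP for 26 members (59.1%) and for 35.7% of all genes. Among genes above the median signal, where most members lie, it was DMSO MEP for 46.3%. JQ1 MEP was the highest array for 22 of the 44 members on the same relative scale, for 30.5% of all genes and for 40.5% of genes above the median signal.

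Signal level moved with the difference for JQ1 in MEP. The median difference of all genes increased over the quartiles of signal, from -0.22 to -0.08, 0.04 and 0.14. Of the members, 30 lay in the top quartile, where their median was 0.26. Genes above the median signal had a median of 0.10 in this comparison. The part of signal level in the members' position was not tested beyond this. With a centre that follows signal, all 6 MCM genes lay above it, with a median of 0.33.

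**Figure D3:**
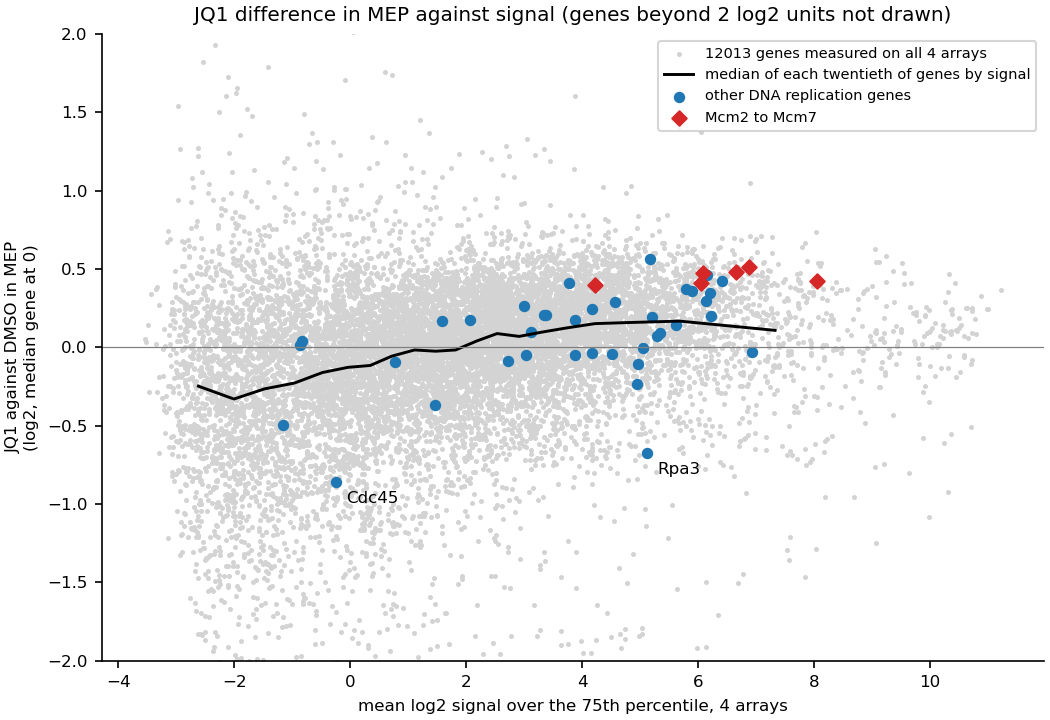
Difference with JQ1 in MEP (vertical axis, log2 relative to the median measured gene) against mean signal (horizontal axis, log2), with the 12013 genes measured on all 4 arrays in grey, a line at their running median and the 44 members in colour. The MCM genes sit at the bright end, above the line, and Cdc45 and Rpa3 sit below it. With spike-in scaling and no centring the MCM genes lie below 0.

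The JQ1 differences in LSK and MEP share no array. Across the 44 members their Pearson correlation was 0.46 and Spearman's rho 0.34, and across 12013 genes they were 0.16 and 0.11. These describe genes of the same 4 arrays, which are not independent replicates. Of the 44 members, 28 lay on the same side of the median gene in both cell types, as did 6520 of the 12013 genes. Since 30 members lay above the median gene in each, many fall on the same side whatever their relation. The MEP difference with JQ1 less the LSK one was past 1.5-fold on the lower side for Rpa3 and Cdc45, both at -0.60, where 13.9% of 12013 genes were lower. For Cdc45 this was -0.45 with normexp, -0.43 with quantile normalization and -0.47 with a centre that follows signal, and so not past 1.5-fold there. With the mean over probes both genes were at -0.58, and without centring on the 75th percentile scale both were at -0.32. It was past 1.5-fold on the upper side for no member, where 9.07% of all genes were. The 4 comparisons come from 4 arrays, so once 3 of them are known the other follows.

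Other genes of the replication machinery, in 6 lists with 61 genes, gave the surroundings of the members. Of the 59 measured with JQ1 in MEP, 28 lay above and 31 below the median gene, with a median of -0.03. Past 1.5-fold were Top1, the topoisomerase that relieves twist ahead of the fork, at 0.62, and on the lower side the histone chaperone Asf1a at -0.92, the origin-firing kinase Cdc7 at -0.85 and Orc4 at -0.60. So 1 was higher and 3 were lower, where 4.11% of all genes were higher and 13.7% lower. In LSK none of 58 was past 1.5-fold, where 2.34% of all genes were higher and 7.54% lower, and 42 lay above the median gene.

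The genes for origin firing (Cdc7, Dbf4, Topbp1, Ticrr, Recql4, Wdhd1 and Mtbp) lay opposite to the MCM ring. All 7 lay below the median gene with JQ1 in MEP, from -0.85 to -0.07, and all 7 above it in MEP against LSK under DMSO, from 0.26 to 0.88. With JQ1 in LSK all 7 lay above it, with a median of 0.17, and 6 of 7 with normexp. The MEP direction rests on the centring: without it, 6 of the 7 were above 0 with JQ1 in MEP on the 75th percentile scale. Cdc45, which these factors help to load, lay on their side in both MEP comparisons, at -0.86 and 0.52, but at -0.27 in LSK, where they lay above the median gene. Both MEP comparisons use the DMSO MEP array. The origin firing genes are also dimmer than the MCM genes, with levels of -1.33 to 2.79 against 3.82 to 8.34. The median of all genes with JQ1 in MEP was -0.22 in the lowest quartile of signal and 0.14 in the top one. For MEP against LSK under DMSO it was 0.04 and -0.07. The lists are small, and neither the difference between them nor the part of signal level in it was tested. The MCM ring was not alone on its side. The list for chromatin assembly and methylation behind the fork had a median of 0.33 with JQ1 in MEP, with 7 genes above the median gene and 4 below. For MEP against LSK under DMSO its median was -0.23, with 3 above and 8 below.

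Regulators of S phase entry had a median of 0.14 with JQ1 in MEP over 17 genes. Cyclin E1, Ccne1, was at 0.65, Rb1, the repressor of E2F factors, at 0.62 and Cdk2, the partner of cyclin E, at -0.64. Of the 18 mitosis genes measured with JQ1 in MEP, 3 were higher past 1.5-fold, where 4.11% of all genes were, Cdc20 at 0.60, Kif20a at 0.73 and Plk1 at 0.82, with a median of 0.24 over the list. In this comparison 15 lay above the median gene and 3 below. In MEP against LSK under DMSO 15 of 19 lay below it and 4 above, with a median of -0.22. The mitosis medians were thus on the side of the MCM ring in both. Of the 7 cell cycle inhibitors, 4 lay above and 3 below the median gene, from Cdkn1b at -0.54 to Cdkn2a at 1.23. Cdkn2a and Cdkn2b, at 1.03, were higher past 1.5-fold, where 4.11% of all genes were. Cdkn2b was dim, with levels of -1.69 in DMSO MEP and -0.32 in JQ1 MEP, and was not well above background on either LSK array.

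**Figure D4:**
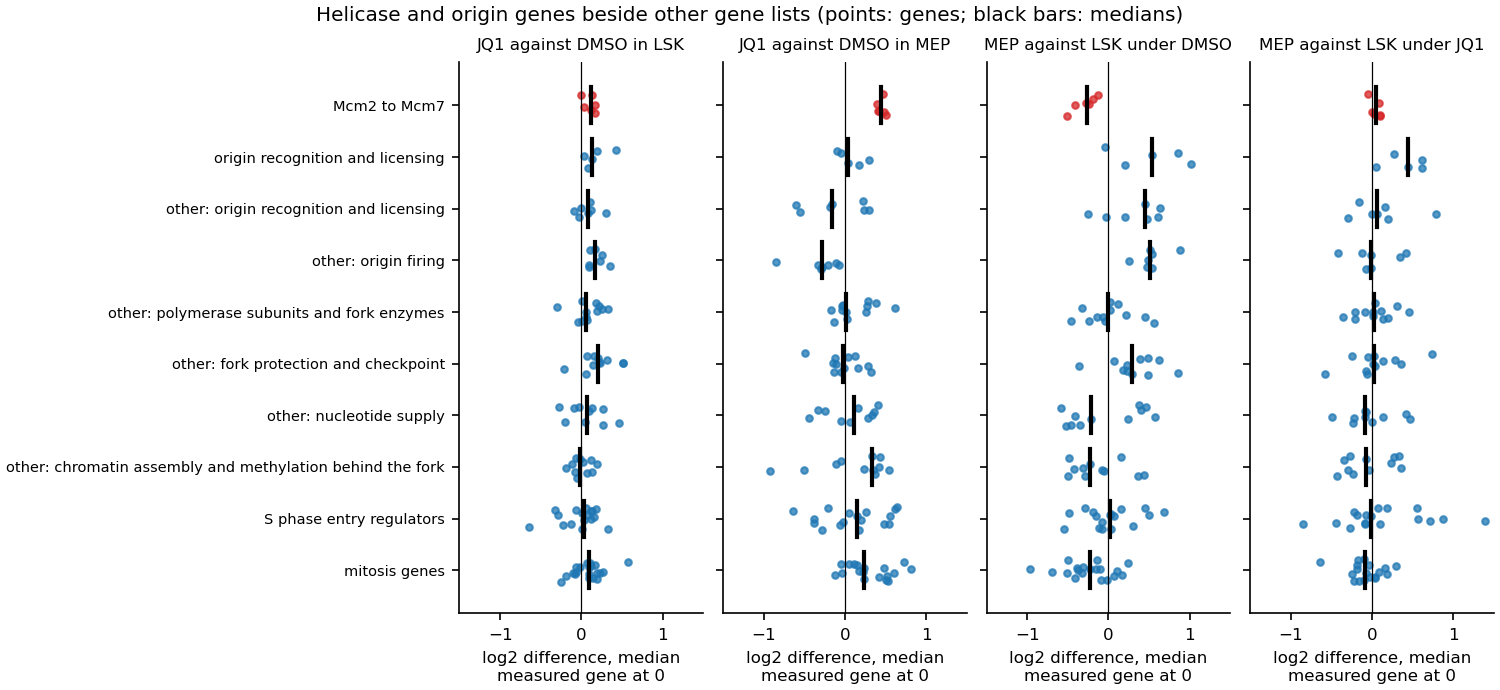
Differences of the MCM and licensing members and of the other gene lists in the 4 comparisons (horizontal axis, log2 relative to the median measured gene), a point for each gene and a bar at the median. The origin firing genes lie to the left of 0 with JQ1 in MEP and to the right of 0 in MEP against LSK under DMSO, opposite to the MCM genes. Both comparisons use the DMSO MEP array, and the origin firing genes are dimmer than the MCM genes. With spike-in scaling and no centring the MCM genes change sides in both.

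The arrays were checked against their labels with marker genes. Levels summed over a list and given relative to the 75th percentile were 276 and 348 for LSK markers on the DMSO and JQ1 LSK arrays, and 124 and 135 on the MEP arrays. Ly6a, which encodes Sca-1, had levels of 4.49 and 4.28 on the LSK arrays against -0.32 and 0.22 on the MEP arrays. Of the 10 LSK markers, 8 lay below the median gene in MEP under DMSO, and Slamf1 and Mecom lay above it, at 2.35 and 0.87. With JQ1 8 of the 9 measured lay below it, and Slamf1 lay at 1.18. All 7 MEP markers were higher in MEP under both treatments, with sums of 38.9 and 44.8 in LSK and 169 and 272 in MEP. Genes of other kinds differed in the same comparisons. All 7 stress and immediate early genes, such as Fos and Egr1, were lower past 1.5-fold with JQ1 in MEP, where 13.7% of all measured genes were. Their sums were 332 in DMSO MEP and 111 in JQ1 MEP. The 7 lymphoid markers, all above background on each array, summed to 117 in DMSO LSK, 24.5 in JQ1 LSK, 40.0 in DMSO MEP and 15.5 in JQ1 MEP. The 7 granulocyte and monocyte markers summed to 1109 in DMSO LSK, 657 in JQ1 LSK, 868 in DMSO MEP and 1566 in JQ1 MEP. Among them Mpo was the brightest on each array, and Lyz2 lay at -1.26 with JQ1 in MEP, against the sum. With JQ1 in LSK 3 of the 7 went against the sum, S100a8 at 0.98, S100a9 at 1.47 and Camp at 1.91. For MEP against LSK under DMSO 4 of the 7 did, these genes at 3.13, 3.81 and 3.84 and Lyz2 at 0.23. The 6 megakaryocyte markers summed to 16.5 and 11.1 in LSK and 108 and 99.4 in MEP. The 6 maturing red cell markers summed to 6.83 and 19.9 on the DMSO and JQ1 MEP arrays, with Alas2 and Epb42 not well above background in DMSO MEP. The 4 mast cell markers summed to 287 and 243 in LSK and 17.1 and 24.9 in MEP. Their part in the replication gene differences was not tested.

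The 4 arrays had a 75th percentile signal of 210 to 327, highest in DMSO MEP, and 45.2% to 53.2% of probes were well above background, again most in DMSO MEP. No spot was saturated, and the SD among spots of a probe was 0.11 to 0.14 log2. With 1 array per group, the effect of a treatment or cell type and anything particular to an array cannot be told apart. Set by the promoter letters, the 14 members with an E2F-type match had a median of 0.25 with JQ1 in MEP and ran from -0.37 to 0.51. The 23 with a window and no match had 0.14 and ran from -0.86 to 0.57, so the ranges overlapped over most of their length.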

How the data were processed

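Per the file headers, the authors extracted 4 scans with Feature Extraction 10.7.1.1, protocol GE1_107_Sep09, array design 028005 (mm9 positions). The deposited scanner files hold the processed signal of each spot as an intensity, already background-subtracted, and other marks (well above background, saturated, outlier). The authors' deposited table holds a linear ratio, the intensity over 1 number per array, and served as an alternative. Per the labels' protocols, 20 ng of total RNA was amplified with spike-in controls.

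Log2 values of the deposited intensity were averaged over a probe's spots without an outlier mark and reduced by each array's 75th percentile. Probes were named by transcript accession through RefSeq (GRCm38.p6), and the brightest probe stood for a gene. A gene was measured in a comparison when well above background on both arrays. Differences were centred on the median measured gene. The members, lists and promoter motifs were chosen with earlier results of these data known. Values on the 4 arrays are given for members past 1.5-fold in any comparison and for the brightest member of each of 9 roles. Other members are given by range and count, and any other singled out was picked after its values were seen. Promoters came from RefSeq. With 1 array per group no test was run. Normexp (limma 3.58.1, offset 50, R 4.3.3) used the median spot signal, as the files have no mean signal column, on which the plan had counted. Other steps used Python 3.11.15 with pandas 2.3.3. Processing was tested on simulated data. Probe error is limited by the number of arrays. Alternatives covered background correction, normalization, scaling, centring, probe choice and filters.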

Additional observations from a re-analysis of the deposited data

How the results depend on the processing

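With 1 array per group, leaving out an array removes a group and no array could be left out. No paired analysis was possible because each group has 1 array and no result comes from a test. Scaling by 1 number per array leaves centred values as they are. Fits without centring and with a centre that follows signal were chosen after seeing the data. Over the centred settings the members' median ran from 0.05 to 0.23 with JQ1 in LSK, 0.02 to 0.22 with JQ1 in MEP, -0.09 to 0.09 for MEP against LSK under DMSO and -0.04 to 0.04 under JQ1. A change of a median by 0.1 log2 or of a count by over 1.5 times was taken as a move, and the cause was not tested. With quantile normalization the median was 0.018 with JQ1 in MEP and -0.068 for the JQ1 difference of MEP less that of LSK (MEP minus LSK), where 1 member was lower. With normexp 0 members were higher in MEP under JQ1, and 1 was lower for MEP minus LSK. With the mean over probes, Pole was the 1 member lower with JQ1 in LSK and in MEP under DMSO. It was also the 1 member higher for MEP minus LSK. Pole and Rrm1, which has 1 probe, were the 2 higher with JQ1 in MEP. The second probe of Pole was well above background in DMSO LSK only, so these values of Pole rest on signal near background. For MEP minus LSK 0 were lower, with Cdc45 and Rpa3 both at -0.58. Without the background filter the median was 0.23 with JQ1 in LSK, 0.092 for MEP against LSK under DMSO, with 6 higher, and -0.079 for MEP minus LSK, and 0 were higher in MEP under JQ1. With genes above the median signal alone, which keeps 37 members, 1 was lower with JQ1 in MEP, 1 higher in MEP under DMSO, 0 higher under JQ1 and 1 lower for MEP minus LSK. With a centre that follows signal 1 was lower for MEP minus LSK. Without centring on the 75th percentile scale, JQ1 in MEP had a median of 0.51 with 16 higher and 0 lower, MEP against LSK under DMSO -0.27 with 5 lower, and MEP minus LSK 0.35 with 8 higher and 0 lower. Without centring and with scaling to the median probe, JQ1 in LSK had a median of 0.34 with 2 higher, JQ1 in MEP 0.92 with 39 higher and 0 lower, MEP against LSK under DMSO -0.37 with 1 higher and 7 lower, under JQ1 0.21, and MEP minus LSK 0.57 with 19 higher and 0 lower. Rpa3 with JQ1 in MEP then turned to 0.077. Without centring and with spike-in scaling, JQ1 in LSK had a median of 0.60 with 25 higher, JQ1 in MEP -0.39 with 13 lower, MEP against LSK under DMSO 0.82 with 38 higher, under JQ1 -0.16 with 0 higher, and MEP minus LSK -1.01 with 44 lower. In these spike-in comparisons the median of all measured genes was 0.52, -0.56, 0.88, -0.19 and -1.07. With the median probe and no centring it was 0.75 with JQ1 in MEP and 0.50 for MEP minus LSK. These uncentred counts therefore follow a shift of all genes, and the share of all genes was not counted. Values of single members were held against the SD between probes of a gene, 0.26 to 0.39 log2, a wider limit: 674 moved by less than it, 90 by more and 1 turned, and the 90 were all without centring and with scaling to the median probe or spike-ins.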
